A study of Homo sapiens with 4 samples.

Results

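The Krüppel-like factors (KLFs) described here are 10 transcription factor genes, KLF2, KLF3, KLF4, KLF5, KLF6, KLF7, KLF9, KLF10, KLF11 and KLF13, out of 18132 genes measured. They were chosen by name, and every probe set paired with 1 of these genes alone was taken, which gave 32 of the 49293 probe sets tested. The cells were of the established human line OE33, derived from an oesophageal adenocarcinoma, grown with 15% serum and transfected with a pool of siRNAs at 50 nM. The knockdown group received siRNAs against ARID1A, which helps the SWI/SNF chromatin remodelling complex bind DNA, and the mock group received non-targeting siRNAs, so both groups carry the transfection itself. RNA was taken 48 hours after transfection, when the knockdown is transient and partial. Each group held 2 biological replicates, each on 1 Affymetrix Human PrimeView array, and the labels do not say how the replicates were separated, so p-values measure the spread between these samples, which may in part be technical. The series asked which genes lie downstream of ARID1A.

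KLFs bind GC-rich and CACCC elements through a carboxy-terminal block of zinc fingers that is nearly the same in all of them, and differ in the amino-terminal part that recruits cofactors. KLF2, KLF4, KLF5, KLF6 and KLF7 can act as activators through acetyltransferases, KLF9, KLF10, KLF11 and KLF13 recruit the SIN3 corepressor, and KLF3 recruits the CtBP corepressors. In the gut and oesophagus, KLF4 is known from differentiating and KLF5 from proliferating epithelial cells. Several KLF mRNAs are short-lived and respond within minutes to hours to serum, stress or hormones.

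The targeted gene was lower in both knockdown arrays. At its brightest probe set, 11719858_a_at, ARID1A had log2 levels of 7.53 and 7.53 in knockdown against 9.28 and 9.33 in mock (log2 change -1.78, SE 0.072, adjusted p = 0.0218 in limma, adjusted by Benjamini-Hochberg over all probe sets). Array medians ran from 5.89 to 5.93. The beta-actin control, whose 3′ probe set exceeds its 5′ probe set more as RNA is less intact, gave differences of 1.10 to 1.21 in knockdown and 0.995 to 1.04 in mock. This measure moved with the condition, while for GAPDH the knockdown arrays had 0.201 and 0.215 and the mock arrays 0.199 and 0.211, which overlap. Their part in the KLF values was not tested. All 9 epithelial markers measured lay at or above the 86.0th percentile of signal. Their summed log2 signal was 16.35 to 16.36 in knockdown and 16.34 in both mock arrays. The fibroblast, endothelial, leukocyte and erythroid markers lay at or below the 59.4th percentile, and 2 of 4 endothelial, 1 of 4 leukocyte and 1 of 6 fibroblast markers were lower in knockdown at an unadjusted p under 0.05, as were 7.25% of all genes. By the same count 1 of 9 epithelial markers was higher, as were 9.76% of all genes. Summed endothelial signal was 7.38 to 7.39 in knockdown and 7.49 to 7.53 in mock, from genes at the 28.7th to 52.8th percentile of signal. The cultures were of the line OE33 alone, and the relation of these dim signals to the KLF2 values was not tested. In whole-culture RNA, fewer cells that express a gene and less RNA per cell cannot be told apart.

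None of the 32 KLF probe sets passed the adjusted threshold of 0.05, which 0.316% of all probe sets did. Those nearest to it belonged to KLF9 and KLF4, higher in knockdown, and to KLF7 and KLF2, lower in knockdown, each by 1.40-fold to 1.59-fold at its most changed probe set. At an unadjusted p under 0.05, 9 of 32 probe sets (28.1%) differed, against 16.2% of all probe sets. Of these 5 were higher, a direction held by 9.1% of all probe sets, and 4 lower, held by 7.07%. The groups did not overlap at 18 of 32 probe sets (56.2%) and at 46.7% of all probe sets, with 10 of the 32 higher (24.2% of all) and 8 lower (22.5% of all). The median log2 change was 0.05 over the KLF probe sets and -0.0025 over all probe sets. Each gene was represented by its brightest probe set, judged by the mean of all arrays and called the representative below, and 0 of 10 KLF genes passed against 0.403% of all genes. At an unadjusted p under 0.05, 3 were higher (KLF4, KLF9 and KLF11, against 9.76% of all genes) and 2 lower (KLF2 and KLF7, against 7.25%), where 17% of all genes were in either direction. Probe sets ending in _s_at or _x_at, 8 of the 32, hold probes that can match other sequences.

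**Figure D1:**
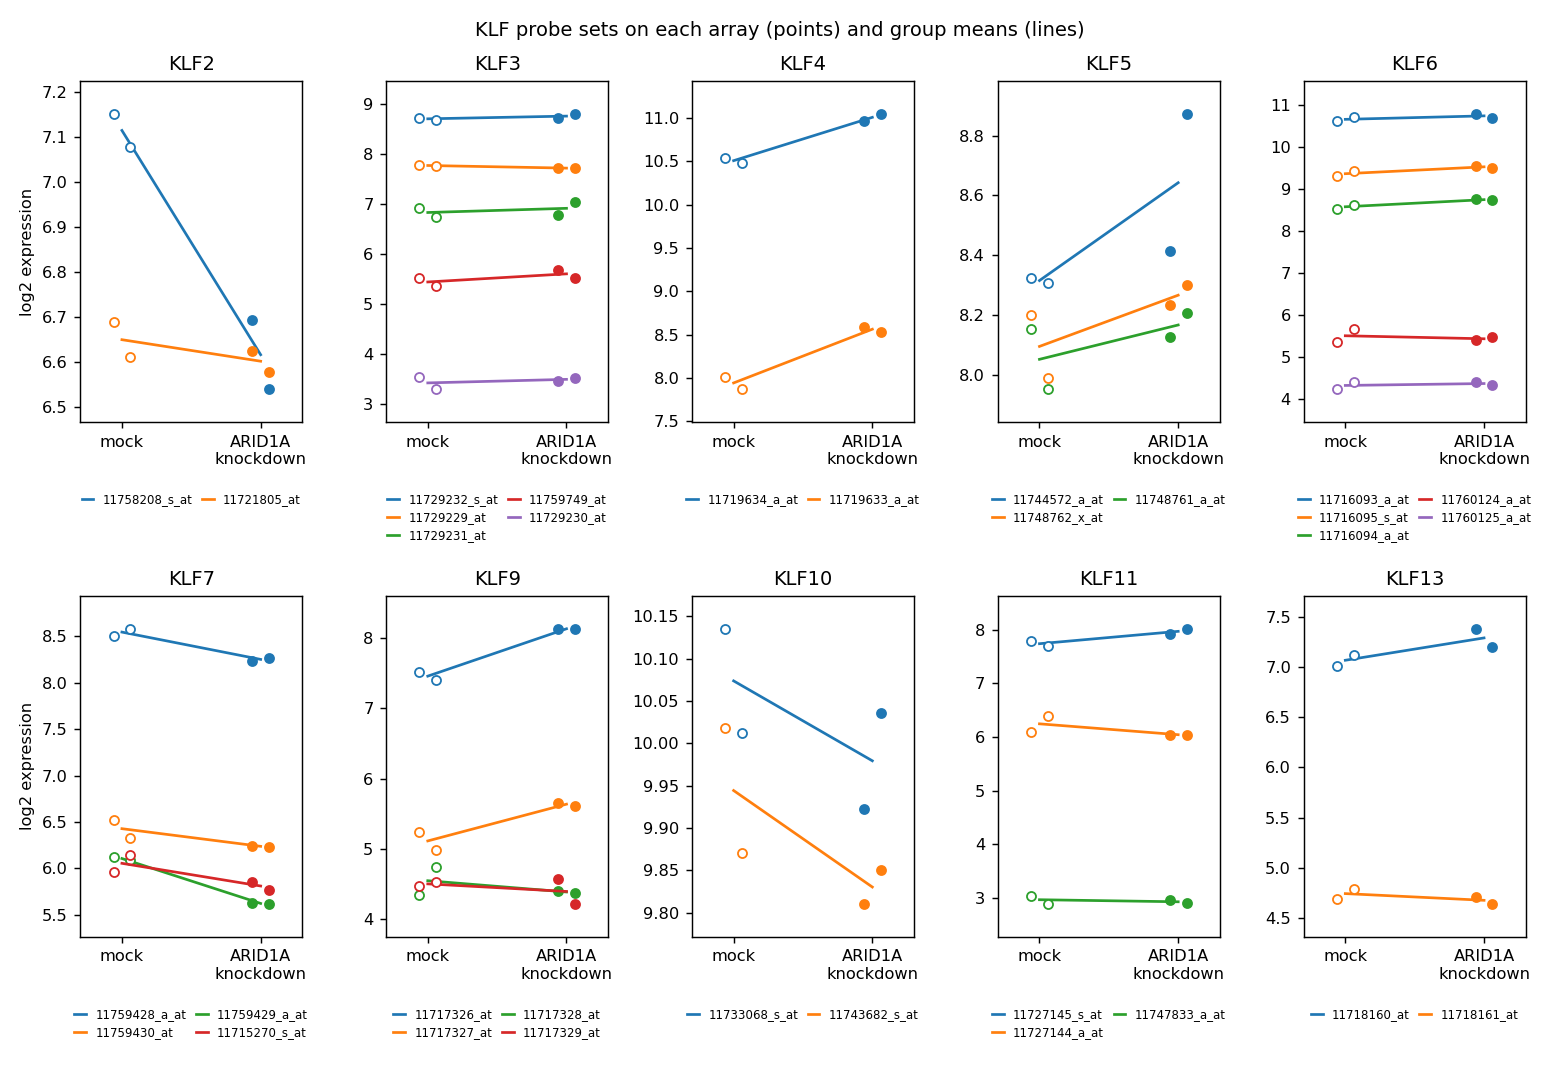
Log2 expression of every KLF probe set on each array, 1 panel a gene, with mock arrays as open and knockdown arrays as filled points (replicate 1 left, replicate 2 right in each group) and lines joining group means; the vertical scale differs between panels. KLF4 and the brighter 2 probe sets of KLF9 are higher in both knockdown arrays, all 4 of KLF7 are lower, and the 2 probe sets of KLF2 meet in knockdown but not in mock.

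Among the SIN3-recruiting members, KLF9 had the largest change of the family. KLF9 is a hormone-responsive factor, induced by glucocorticoids and thyroid hormone in many tissues. Its representative 11717326_at read 8.13 and 8.13 in knockdown against 7.52 and 7.40 in mock. Both knockdown values lay above both mock values, with a gap of 0.609 between the groups. The means were 8.13 ± 0.0046 and 7.46 ± 0.0862 (SD, n = 2 each), a 1.59-fold difference (log2 change 0.67, 95% confidence interval 0.48 to 0.87, limma adjusted p = 0.0525). The second probe set, 11717327_at, read 5.66 and 5.61 against 5.24 and 4.99 (log2 change 0.52, adjusted p = 0.114), again without overlap. The dim 11717328_at and 11717329_at lay at the 28.6th and 28.2th percentile of signal and had changes of -0.16 and -0.11 with overlapping groups. The difference between 11717326_at and 11717328_at was 3.73 and 3.75 in knockdown against 3.17 and 2.65 in mock (exact permutation test, two-sided p = 0.333, the smallest that 2 against 2 arrays can give), which puts their changes 0.833 apart.

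KLF10 and KLF11, the TGF-beta-inducible early genes that repress through SIN3, and KLF13, known from T cells as an activator of CCL5, had smaller changes. KLF10 read 9.92 and 10.04 in knockdown against 10.14 and 10.01 in mock at 11733068_s_at (log2 change -0.09, 95% confidence interval -0.31 to 0.12, adjusted p = 0.645). The groups overlapped there, and at 11743682_s_at, with a change of -0.11, they were 0.0209 apart. KLF11 read 7.92 and 8.02 against 7.79 and 7.69 at 11727145_s_at (log2 change 0.23, 0.027 to 0.43, adjusted p = 0.261). At 11727144_a_at it read 6.04 on both knockdown arrays against 6.10 and 6.39 (change -0.20, adjusted p = 0.440), the opposite direction, and leaving out mock replicate 2 gave a change of -0.055 there, against -0.350 on leaving out mock replicate 1, so KLF11 has no single direction on this array. The third KLF11 probe set, 11747833_a_at, lay at the 1.89th percentile of signal, with a change of -0.04. KLF13 read 7.38 and 7.20 against 7.01 and 7.12 at 11718160_at (log2 change 0.22, -0.014 to 0.46, adjusted p = 0.333). Its groups did not overlap there, and the change was 0.129 without knockdown replicate 1 and 0.316 without knockdown replicate 2, while at the dim 11718161_at, with a change of -0.07, they did.

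Among the activators, KLF4 was higher in the knockdown arrays at both of its probe sets. KLF4 drives cell cycle exit and terminal differentiation in epithelia, and is one of the factors used to reprogramme somatic cells. Its representative 11719634_a_at, at the 95.2th percentile of signal, read 10.97 and 11.05 in knockdown against 10.54 and 10.48 in mock. The means of 11.01 ± 0.0535 and 10.51 ± 0.038 (SD, n = 2 each) differed 1.41-fold (log2 change 0.50, 95% confidence interval 0.31 to 0.69, limma adjusted p = 0.0753). The other probe set, 11719633_a_at, read 8.59 and 8.53 against 8.02 and 7.87 (log2 change 0.62, 0.41 to 0.83, adjusted p = 0.0639). Both knockdown arrays lay above both mock arrays at each of the 2 probe sets, and neither shares the endings that mark probes matching other sequences.

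KLF7, a broadly expressed factor studied most in neurons and fat, was lower in knockdown at all 4 of its probe sets. The representative 11759428_a_at read 8.23 and 8.27 in knockdown against 8.51 and 8.58 in mock (log2 change -0.29, 95% confidence interval -0.48 to -0.11, adjusted p = 0.167). Its most changed probe set, 11759429_a_at, read 5.63 and 5.62 against 6.12 and 6.09, a 1.40-fold difference (log2 change -0.48, -0.66 to -0.31, adjusted p = 0.0723). The other 2, 11715270_s_at and 11759430_at, had changes of -0.24 and -0.19 (adjusted p = 0.286 and 0.376). The groups did not overlap at any of the 4, where 22.5% of all probe sets were lower without overlap.

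KLF2, which keeps T cells quiescent and answers blood flow in endothelium, gave readings that depended on the probe set. At 11758208_s_at it read 6.69 and 6.54 in knockdown against 7.15 and 7.08 in mock, a 1.41-fold difference (log2 change -0.50, 95% confidence interval -0.71 to -0.28, adjusted p = 0.0942). At 11721805_at, whose ending marks no shared probes, it read 6.62 and 6.58 against 6.69 and 6.61 (log2 change -0.05, -0.23 to 0.14, adjusted p = 0.808), and the groups overlapped. The first exceeded the second by 0.463 and 0.468 in the mock arrays, and by 0.068 and -0.039 in the knockdown arrays (exact permutation test, two-sided p = 0.333, the smallest possible here). The lower KLF2 signal was thus seen at the shared probe set and not at the other.

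KLF5, a pro-proliferative factor of basal and crypt epithelium, and KLF6, a broadly expressed early-response factor, had small positive changes. KLF5 read 8.41 and 8.87 in knockdown against 8.32 and 8.31 in mock at 11744572_a_at (log2 change 0.33, 95% confidence interval -0.056 to 0.71, adjusted p = 0.372). The knockdown replicates differed more from each other there than the nearer one did from mock, and the change was 0.0977 without knockdown replicate 2 and 0.557 without knockdown replicate 1. Its other probe sets, 11748762_x_at and 11748761_a_at, had changes of 0.17 and 0.12. KLF6 read 10.78 and 10.70 against 10.61 and 10.71 at 11716093_a_at (log2 change 0.08, -0.12 to 0.28, adjusted p = 0.670), with overlap. At 11716094_a_at and 11716095_s_at the changes were 0.17 and 0.16 without overlap, and at the dimmer 11760124_a_at and 11760125_a_at they were -0.07 and 0.05.

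KLF3, a CtBP-dependent repressor of red cell and fat genes, had the narrowest range of changes among members with over 3 probe sets. Its representative 11729232_s_at read 8.72 and 8.80 in knockdown against 8.73 and 8.69 in mock (log2 change 0.05, 95% confidence interval -0.13 to 0.24, adjusted p = 0.777). The groups overlapped, and the interval holds no change beyond 0.24 in either direction. Over its 5 probe sets the changes ran from -0.05 at 11729229_at to 0.16 at 11759749_at, and the groups overlapped at all but 11729229_at.

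**Figure D2:**
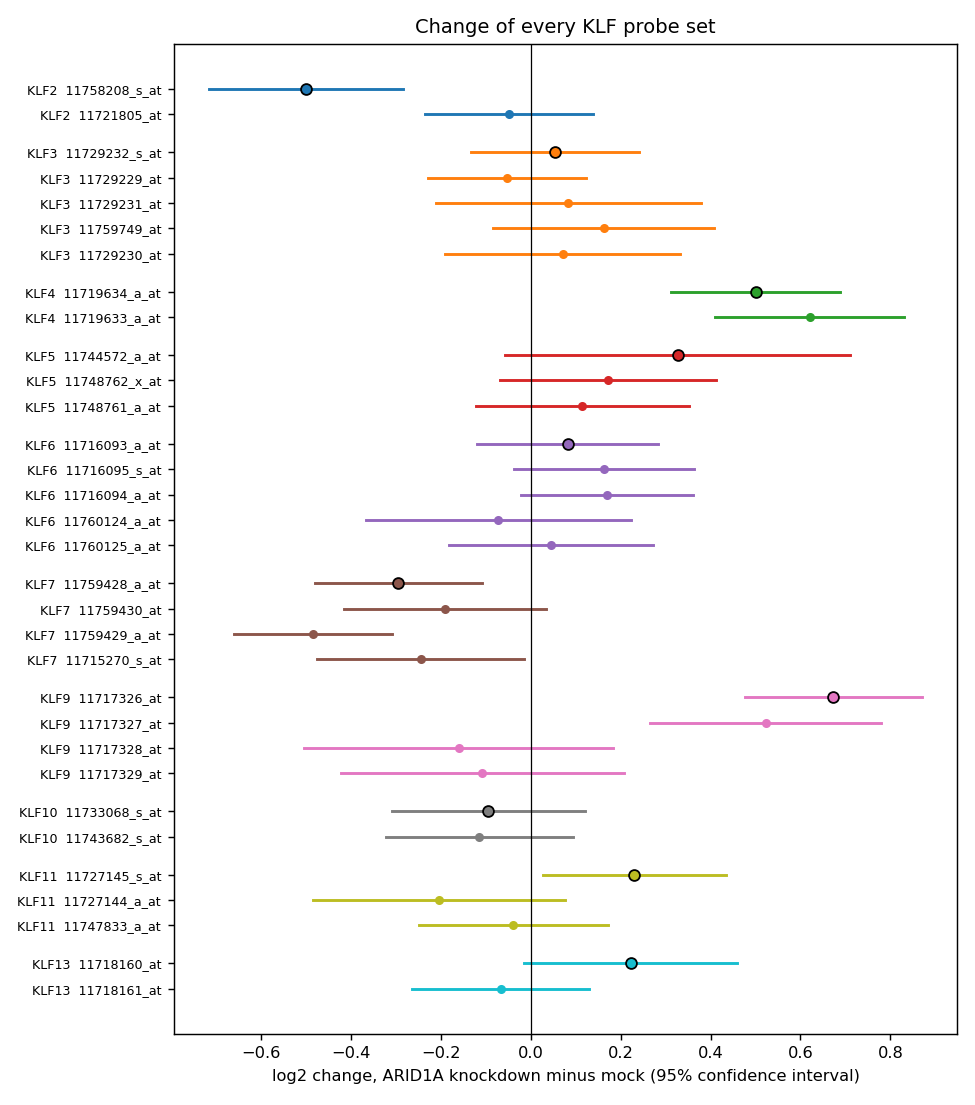
Log2 change (knockdown minus mock) of each of the 32 KLF probe sets with its 95% confidence interval from limma; the representative probe set of each gene is outlined in black. The intervals of both KLF4 probe sets, the brighter 2 of KLF9, 3 of KLF7, 1 of KLF2 and 1 of KLF11 exclude 0, and those of KLF3, KLF5, KLF6, KLF10 and KLF13 include it.

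Related members were also compared within each array, over 6 pairs. KLF4 minus KLF2, taken at the representatives within each array, was 4.28 and 4.51 in knockdown against 3.39 and 3.40 in mock, a difference of 0.999 between their log2 changes. That difference rests in part on the shared 11758208_s_at of KLF2, while the unshared 11721805_at had a change of -0.05 with overlapping groups. KLF6 minus KLF7 was 2.55 and 2.43 against 2.10 and 2.13 (difference of changes 0.376), and KLF9 minus KLF13 was 0.751 and 0.931 against 0.504 and 0.277 (0.451). KLF9 and KLF13 also have dim probe sets with negative changes (-0.16 and -0.11 for KLF9, -0.07 for KLF13). KLF10 minus KLF11 was 2.01 and 2.02 against 2.35 and 2.32 (-0.325), which rests on 11727145_s_at of KLF11, whose direction 11727144_a_at opposes. KLF4 minus KLF9 was 2.84 and 2.92 against 3.02 and 3.09 (-0.173). For these 5 pairs the groups did not overlap, and the exact permutation p was 0.333, the smallest possible. The 6 pairs were picked by hand, among members chosen with earlier results of these data known. The share without overlap over all gene pairs was not computed, so the count of 5 is not read as a result. KLF4 minus KLF5 was 2.56 and 2.18 against 2.21 and 2.18 (difference of changes 0.173, exact permutation p = 0.667), with overlap. With so few arrays no pair could pass a threshold of 0.05, so no pair was shown to differ in its change.

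The upstream sequences of KLF9 and KLF4, the members with the largest positive changes, and of KLF2, the most negative at its representative, are shown with the GC-rich and CACCC elements that KLFs themselves bind. They are the 250 bases before the gene start in RefSeq, build GRCh38.p14, 5′ to 3′ on the gene's strand, with GGGCGG or CACCC, or their reverse complements CCGCCC and GGGTG, in capitals.
KLF9 (chr9:70414658-70414907, minus strand): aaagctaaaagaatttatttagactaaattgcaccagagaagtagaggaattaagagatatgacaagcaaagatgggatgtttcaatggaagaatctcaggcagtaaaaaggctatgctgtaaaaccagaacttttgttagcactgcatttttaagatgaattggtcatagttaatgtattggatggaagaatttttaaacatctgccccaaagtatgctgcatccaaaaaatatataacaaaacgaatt
KLF4 (chr9:107489770-107490019, minus strand): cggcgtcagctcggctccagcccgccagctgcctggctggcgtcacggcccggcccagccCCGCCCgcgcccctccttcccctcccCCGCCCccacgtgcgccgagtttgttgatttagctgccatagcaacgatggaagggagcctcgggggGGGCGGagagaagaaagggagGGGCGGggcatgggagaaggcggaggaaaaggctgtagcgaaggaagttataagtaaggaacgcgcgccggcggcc
KLF2 (chr19:16324576-16324825, plus strand): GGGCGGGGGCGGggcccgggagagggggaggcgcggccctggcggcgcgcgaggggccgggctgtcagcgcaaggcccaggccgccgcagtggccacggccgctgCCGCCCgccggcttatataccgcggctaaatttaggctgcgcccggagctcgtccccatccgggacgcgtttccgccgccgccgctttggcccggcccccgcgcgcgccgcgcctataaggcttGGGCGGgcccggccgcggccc
The KLF4 window held 4 matches to GGGCGG and the KLF2 window also held 4, while the KLF9 window held 0, and CACCC was in none of these 3 windows. Matches were counted on both strands, and no base belonged to both motifs. Of all 35116 such windows, 42.6% held GGGCGG and 54.7% held CACCC. RefSeq windows were matched for 8 of the 10 genes, 13 windows in all since some genes have several starts, of which 8 held GGGCGG and 6 held CACCC. The motif CGTCA, part of the cyclic AMP response element, was found 2 times in the KLF4 window and 0 times in those of KLF9 and KLF2, and lay in 21.2% of all windows. CCAAT was found 2 times in the KLF9 window and 0 times in those of KLF4 and KLF2, and lay in 32% of all windows. TATAAA and AGAACA, also searched, were in none of these 3 windows and lay in 10.7% and 12.4% of all windows. GC content was 69.2% for KLF4, 80% for KLF2 and 32.4% for KLF9. The arrays do not show which start the cells used.

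**Figure D3:**
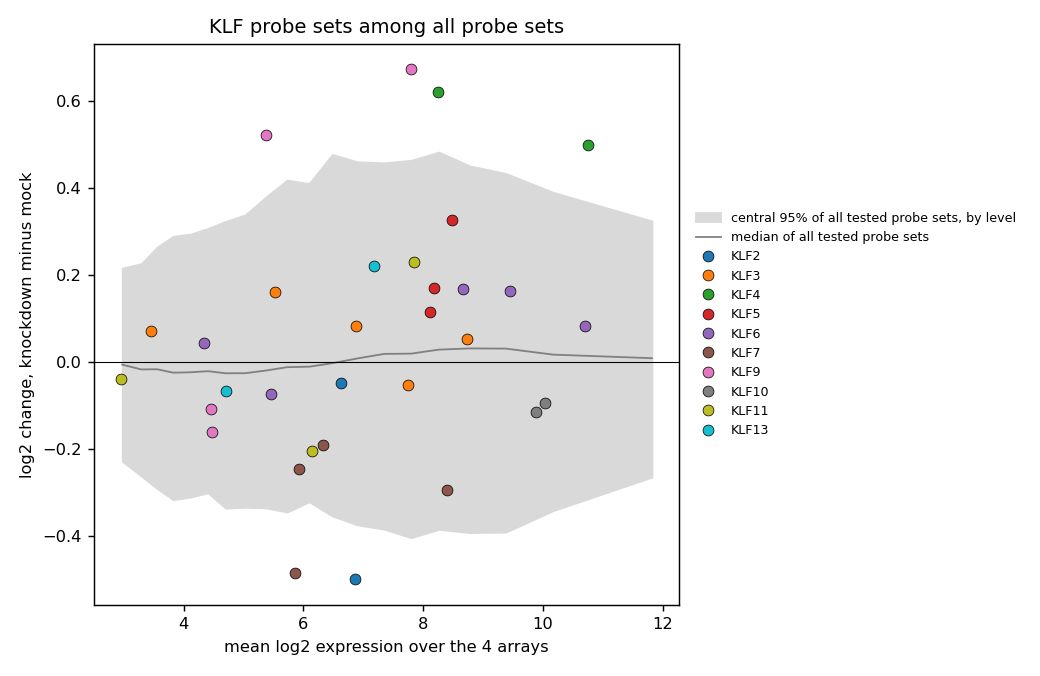
Log2 change against mean log2 expression for the 32 KLF probe sets (coloured by gene), with the central 95% (grey band) and median (grey line) of all 49293 probe sets in 20 groups of equal size by level. Both KLF4 probe sets and 2 of KLF9 lie above the band, and 1 each of KLF2 and KLF7 below it.

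Whether KLF probe sets passed depended on the scaling, the filter and the estimate of the spread. With the deposited values 0 of 32 passed. With each array centred on its median 4 passed, both of KLF4, 11717326_at of KLF9 and 11759429_a_at of KLF7, where 1.36% of all probe sets did and the split over all probe sets went from 74 higher and 82 lower to 403 higher and 268 lower. With the dimmer part of the probe sets removed 5 of the 22 KLF probe sets left passed, against 8.54% of those tested, and with a spread that depends on level 7 of 32 passed, against 6.51%. The 7 were 4 higher, at KLF4 and KLF9, and 3 lower, at KLF7 and KLF2. Under quantile normalization 11717326_at of KLF9 was the 1 KLF probe set that passed (limma adjusted p = 0.0438), against 0.603% of all. Without shared probe sets 0 of the 24 left passed, against 0.0659%. With a replicate block, or without any 1 array, 0 probe sets of any gene passed, not even those of ARID1A, so the lost calls in these settings say nothing about how stable the KLF calls are.

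**Figure D4:**
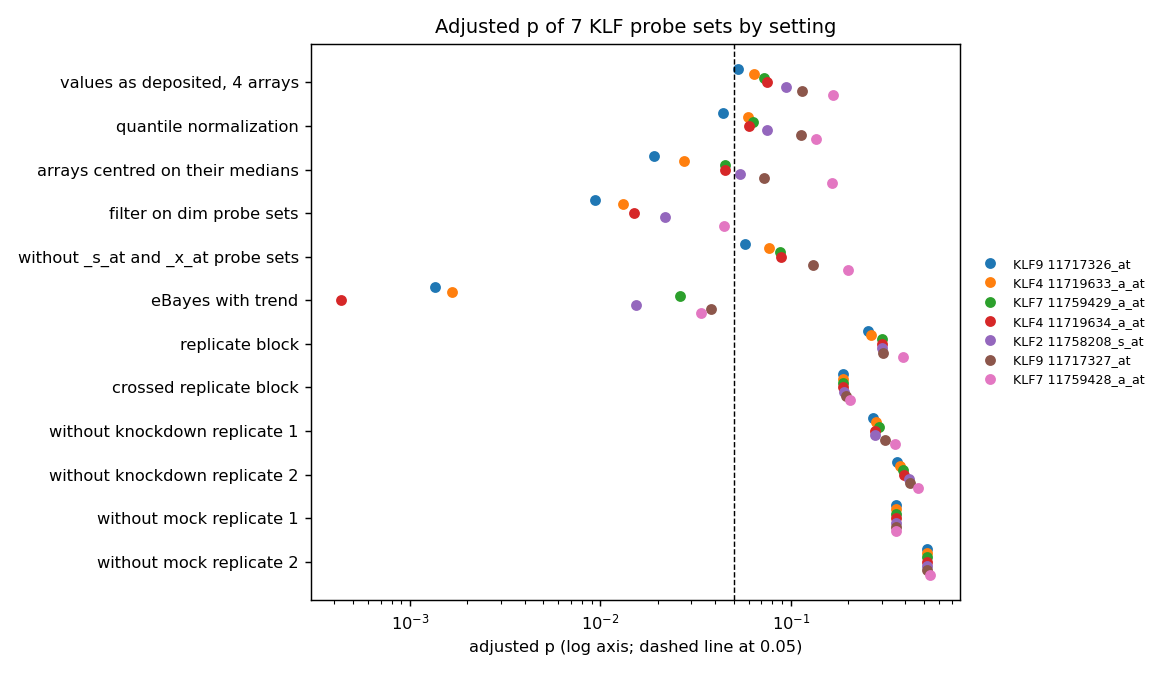
Adjusted p (log axis) of the 7 KLF probe sets with the smallest adjusted p, for the deposited values on all 4 arrays and for 11 other settings, with a dashed line at 0.05. For the deposited values the points sit right of the line, from 0.0525 to 0.167. Both KLF4 probe sets and 11717326_at of KLF9 lie left of it with median centring, the filter and the level trend. In settings with a block or 1 array fewer the points lie well to the right. A filtered-out probe set has no point.

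Among the 7 other KLF genes listed, all measured, none passed and the median log2 change was -0.09, against -0.0043 over all genes. KLF16, a SIN3-binding relative of KLF9 and KLF13, read 8.05 and 7.90 in knockdown against 8.32 and 8.37 in mock (log2 change -0.37, adjusted p = 0.145). Its 4 probe sets had changes from -0.43 to -0.35, though 3 of them end in _s_at or _x_at. KLF17 had a change of 0.29 (0.218) at the 16.4th percentile of signal, and KLF1, the erythroid factor, of -0.20 (0.387). KLF8 had a change of -0.09, KLF12 of -0.10, KLF14 of 0.10 and KLF15 of 0.02, each with adjusted p of 0.625 or more and a representative at or below the 39.2th percentile of signal. The SP factors, which bind the same GC boxes, had 0 of 9 past the test and a median of -0.02. SP6, an epithelial SP factor, had a change of 0.22 and SP5, a Wnt target, of -0.18 (adjusted p = 0.245 and 0.306). SP1 had a change of -0.02 at its representative and of 0.36 at 11722809_at (adjusted p = 0.115), SP3 of 0.04, SP4 of 0.10, SP2 of -0.05, SP7 of -0.07, SP8 of -0.14 and SP9 of 0.14, none past the test.

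At their representatives, the cofactors and protein regulators of KLFs had 0 of 20 past the test and a median of 0.01. None had an unadjusted p under 0.05 there. The acetyltransferase KAT2B had a change of 0.20, the corepressor scaffold SIN3A of 0.16, its partner SUDS3 of 0.20 and WWP1, a ubiquitin ligase for KLF2 and KLF5, of 0.20, each with an adjusted p between 0.388 and 0.401. At its brightest unshared probe set SUDS3 had a change of 0.35 (limma without shared probe sets, unadjusted p = 0.00888, adjusted p = 0.189). Genes of the ERK5, MEF2 and FOXO routes that induce KLF2 and KLF4 had 0 of 10 past the test and a median of 0.04. At an unadjusted p under 0.05 they had 2 higher and 1 lower (30%, against 17% of all genes in either direction). MAP3K2, an upstream kinase of that cascade, had a change of -0.42 (adjusted p = 0.129), its relative MAP3K3 of 0.22, MAPK7, which is ERK5 itself, of 0.20 and MEF2A of 0.17.

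Immediate early genes are a class that holds KLF2, KLF4, KLF6 and KLF10 in many cell types. The list had 0 of 21 past the test and a median of 0.01. By an unadjusted p under 0.05, 5 were higher and 2 lower (33.3%, against 17% of all genes in either direction). FOSL1, an AP-1 subunit, had a change of -0.59 (adjusted p = 0.0699), EGR1 of 0.34, IER3 of 0.33 and IER5 of 0.37 (0.132 to 0.152). The TGF-beta list, whose ligand induces KLF10 and KLF11, had 0 of 15 past the test and a median of 0.06, and at an unadjusted p under 0.05 it had 5 higher and 0 lower (33.3%, against 17% of all genes in either direction). The corepressor TGIF1 had a change of 0.47 (adjusted p = 0.0838), the inhibitory SMAD7 of 0.32, SMAD6 of 0.26 and the signal transducer SMAD2 of 0.33. As a median over all probe sets of the gene, SMAD7 had a change of 0.22, SMAD6 of -0.05 and SMAD2 of -0.07. In the glucocorticoid list, whose receptor induces KLF9, 1 of 10 passed, against 0.403% of all genes, and the median was 0.06. That gene was the metallothionein MT2A, which was lower in knockdown at a probe set ending in _x_at (log2 change -1.48, adjusted p = 0.0218) and had a change of -0.40 at its other one (0.205), while ERRFI1, a feedback inhibitor of EGFR, had a change of 0.47 (0.0754), CRISPLD2 of 0.23 and ZBTB16 of -0.20. FKBP5 had a change of 0.06, TSC22D3 of 0.15, SGK1 of 0.24 and the receptor gene NR3C1 of 0.05, and none of these passed.

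Genes described elsewhere as targets of 1 or more KLFs had 1 of 26 past the test, against 0.403% of all genes. The list median was -0.02. ODC1, which starts polyamine synthesis, read 10.81 and 10.74 in knockdown against 11.44 and 11.43 in mock (log2 change -0.66, adjusted p = 0.0499). At an unadjusted p under 0.05, 7 were higher and 6 lower (50%, against 17% of all genes in either direction). Like the other gene lists, this list was chosen with earlier results of these data known, so its shares are not read as a result. KRT15, a basal keratin, had a change of 0.61 (adjusted p = 0.0716), THBD, the thrombin receptor thrombomodulin and a target of KLF2 and KLF4, of 0.46 (0.0813), and LGALS3, a lectin that KLF3 represses, of 0.42 (0.0942). The members of this list answer to many other factors, and the list has no common direction.

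**Figure D5:**
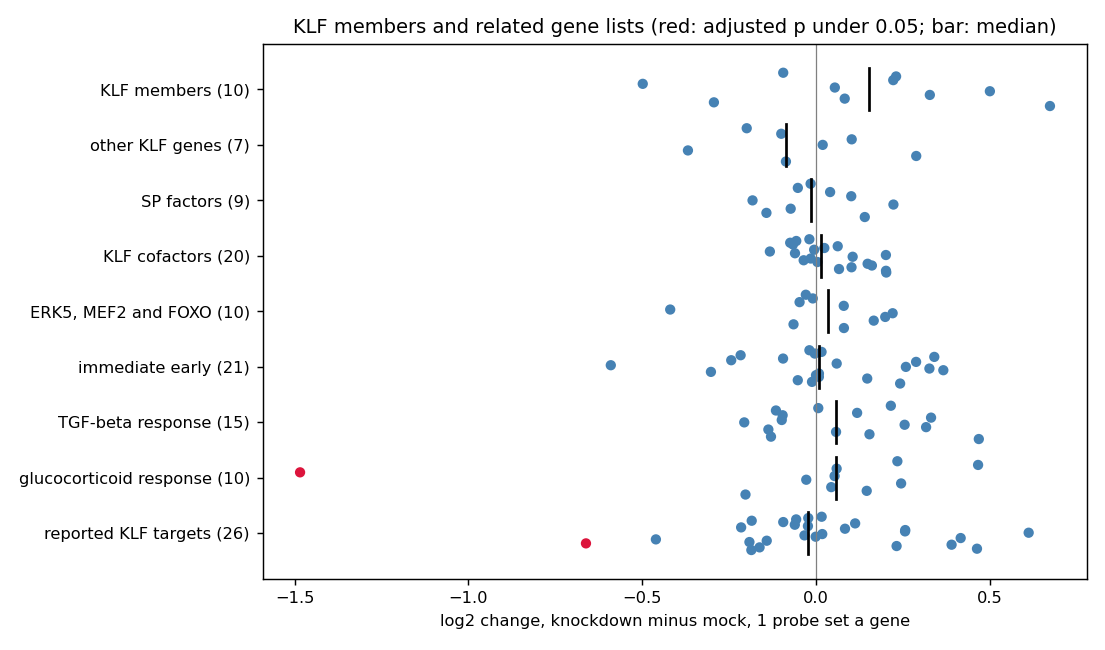
Log2 change (knockdown minus mock) at 1 probe set a gene for the 10 KLF members and for the measured genes of 8 related lists, with the list size in brackets, the list median as a black bar and genes past the adjusted threshold of 0.05 in red. MT2A at -1.48 and ODC1 at -0.66 are the 2 red points, and the list medians lie between -0.09 and 0.06 against 0.15 for the KLF members.

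The 3 genes whose profile over the 4 arrays, each centred on its own mean, lay closest to that of KLF9 were WIPI1, GRHL3 and SNORA12. Their root mean square differences from KLF9 were 0.0122, 0.0155 and 0.0174 log2 units. WIPI1, an autophagy protein, had a log2 change of 0.69 (adjusted p = 0.0517), GRHL3, a transcription factor of epithelial barrier formation, of 0.68 (0.0499), and SNORA12, a small nucleolar RNA gene, of 0.64 (0.0561). GRHL3 read 9.47 and 9.45 in knockdown against 8.82 and 8.74 in mock, and rose with a p just inside the threshold that KLF9 missed. Over 4 arrays in 2 groups, such likeness cannot be told apart from a like difference between the groups.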

How the data were processed

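Total RNA from 4 cultures was labelled (1 µg each) and hybridised to 1 array each. The authors deposited log2 expression values per probe set; the tools named are RMA and Partek, without version or role, per the submitters' processing notes. RMA sets arrays to a common distribution, so a change in total mRNA per cell is not visible, and changes of dim probe sets are understated.

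Of 49372 probe sets, 79 controls were left out and 49293 tested with limma 3.58.1 in R 4.3.3 (lmFit, eBayes, two-sided, no block), with Benjamini-Hochberg adjustment over all of them and a threshold of 0.05. Residual degrees of freedom numbered 2, and those of the prior 3.62. Groups and replicate numbers came from the labels. Gene names came from the platform annotation, checked by Entrez identifier against RefSeq (GRCh38.p14): 44988 probe sets had 1 gene, 1832 several and 2473 none. The procedure was tested on simulated data. Promoter windows are from RefSeq. The members, lists and the rule for named genes (all member probe sets, the other KLF and SP genes, list genes past the test, up to 4 per list with the smallest p, and the 3 profiles nearest to the member with the smallest p) were chosen with earlier results of these data known. FKBP5, TSC22D3, SGK1 and NR3C1 were named after their values were seen. Alternatives were 2 normalizations, a filter on dim probe sets, unshared probe sets, a level trend, replicate blocks, leaving out each array, and the median over a gene's probe sets. Scan batches: not given in the sources used here.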

Additional observations from a re-analysis of the deposited data

How the results depend on the processing

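The count of KLF probe sets past the test, 0 with the deposited values, was 1 under quantile normalization, 4 with median centring, 5 with the filter on dim probe sets and 7 with a level trend; for representative probe sets the counts were 1, 2, 4 and 4. The count of related list genes, 2 with the deposited values, was 6 with median centring, 14 with the filter, 22 with the trend, and 0 without shared probe sets and with either block. All of these counts were 0 without any 1 array, where the ARID1A change ran from -1.80 to -1.75 (adjusted p 0.244 to 0.521). The same replicate numbers do not pair the arrays by their labels, and the deviations of same-numbered arrays correlated at -0.202. With the replicate block the ARID1A change was -1.78 (adjusted p = 0.217) and no KLF probe set passed. With the crossed replicate block, chosen after seeing the data, it was -1.78 (0.187), and 0 probe sets passed. Among the named genes SP2 turned to 0.059 without shared probe sets.

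Without 1 array, these changes of values near 0 turned sign, with their ranges over the 4 settings: KLF3 at 11729231_at (-0.0483 to 0.215) and 11729230_at (-0.0560 to 0.198), KLF6 at 11760124_a_at (-0.227 to 0.0835) and 11760125_a_at (-0.0454 to 0.136), KLF9 at 11717328_at (-0.358 to 0.0378) and 11717329_at (-0.282 to 0.0671), KLF11 at 11747833_a_at (-0.113 to 0.0366), KLF12 (-0.200 to 0.0005), KLF14 (-0.0595 to 0.265), KLF15 (-0.113 to 0.152), SP1 (-0.0432 to 0.0122), SP2 (-0.178 to 0.0735), SP3 (-0.0309 to 0.112), SP7 (-0.169 to 0.0232) and SP8 (-0.299 to 0.0141). The changes of KLF4 (0.463 to 0.693 over both probe sets), KLF9 at 11717326_at (0.612 to 0.734), KLF7 at 11759429_a_at (-0.499 to -0.468) and KLF2 at 11758208_s_at (-0.575 to -0.422) kept their sign. The causes of these differences were not tested. As a median over a gene's probe sets, the change was 0.21 for KLF9 and -0.27 for KLF2, and the sign turned for KLF11 (-0.038), SP2 (0.059), SP4 (-0.104), SP8 (0.050), SMAD2 (-0.070) and SMAD6 (-0.054), while WWP1 (0.017) and CRISPLD2 (0.022) came near 0.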
